A study of Mus musculus with 6 samples.

Results

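The transcription factors, coactivators and kinase that carry the cAMP signal to genes were followed in primary mouse hepatocytes given a nuclear form of CREBH. The 10 genes were Creb1, Crem, Atf1, Atf2, Crtc1, Crtc2, Crtc3, Sik1, Crebbp and Ep300. They were chosen by name for their part in this pathway, and each was measured by 1 feature of the array that was annotated to its symbol alone, among 18820 genes measured in this way. Hepatocytes came from male wildtype C57BL/6J mice 8 to 10 weeks old and were plated in dishes of 60 mm. They were transduced at a multiplicity of infection of 100 with an adenovirus that expresses either GFP (Ad-GFP, the control) or nuclear CREBH (Ad-nuclear CREBH), so that both groups were infected. RNA was taken 24 h later from 3 dishes per group, and each RNA was read on its own Affymetrix Mouse Gene 1.1 ST array. Whether different dishes hold cells of different mice is not given, and the p-values below therefore cover only the spread among dishes, which may be technical.

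In the fasted liver, glucagon raises cAMP, which frees the catalytic subunits of protein kinase A (PKA). PKA phosphorylates CREB and its relatives CREM and ATF1, which then bind the paired acetyltransferases CBP and p300. The same signal silences the salt-inducible kinases (SIK), which otherwise keep the CRTC coactivators phosphorylated in the cytoplasm, so that CRTC proteins enter the nucleus and join CREB at cAMP response elements. Much of this control acts on proteins and is not read by an mRNA array. CREBH, the product of Creb3l3, is a liver-enriched relative of CREB that is released from the ER membrane by cleavage, and its nuclear fragment, which the virus encodes, binds DNA through a basic leucine zipper (bZIP) domain of the same kind.

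All values are log2 expression as deposited, and differences are Ad-nuclear CREBH minus Ad-GFP. A gene rose or fell where limma gave an adjusted p under 0.05, with the Benjamini-Hochberg correction made over the whole table. Creb3l3 rose, from 8.49, 8.02 and 8.21 in the Ad-GFP dishes to 9.97, 10.46 and 10.59 in the Ad-nuclear CREBH dishes. The virus carries a mouse CREBH sequence, so this feature may also read viral transcript, and viral and cellular transcripts were not told apart. In both groups the array of replicate 1 correlated least with the other arrays of its group, at 0.986 (Ad-GFP) and 0.991 (Ad-nuclear CREBH) across genes. Of 8 hepatocyte markers none was below the median level of all genes. Apoa1 rose 1.66-fold, Fgb was 79.6% lower, and the other 6 did not pass. Their summed linear level, to which bright genes such as Alb give the most, was 32949 to 36596 with Ad-GFP and 33716 to 35138 with Ad-nuclear CREBH. Of 7 macrophage markers 5 were below that median, among them the Kupffer cell markers Clec4f and Vsig4. Of these 7, Csf1r rose by 0.61 (adjusted p = 0.0254) while Cd68 fell by 1.13 (adjusted p = 0.0215) and Cd5l by 0.64 (adjusted p = 0.0374). With 1 array left out, Csf1r and Cd68 each passed in 2 of 6 omissions and Cd5l in 1. The summed level ranged from 2574 to 3505 with Ad-GFP and from 1111 to 2481 with Ad-nuclear CREBH, most of it from Cd68. Among 4 cholangiocyte markers Epcam rose 3.33-fold and Krt19 was 52.1% lower, while no endothelial, stellate or lymphocyte marker passed, with the stellate marker Col1a1 at 5.02, 7.30 and 7.51 with Ad-nuclear CREBH and a mean of 4.98 with Ad-GFP. The part of other cells in the results was not tested. Fewer cells of a type and less RNA per cell cannot be told apart in these dishes.

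In hepatocytes transduced with Ad-nuclear CREBH, Sik1 and Crem rose and Atf2 and Crebbp fell, whereas Creb1, Atf1, Crtc1, Crtc2, Crtc3 and Ep300 did not pass the test. These 4 of 10 genes are 40% of the group, near the 37.4% of all genes that passed in either direction, and the 2 rises and 2 falls stand beside 19.2% and 18.2% of all genes. The share is therefore no result about the group, and the changes of its single genes are what the data show. The dishes of the groups did not overlap for 6 of the 10 genes, against 49.4% of all genes. The methods used a p under 0.001, fold change limits of 2 and 0.5 and an expression value above 300. Here these were the unadjusted p of limma, a fold change over 2 or under 0.5 and the linear mean of at least 1 group. By these thresholds Sik1 and Atf2 were called, which 8.01% of all genes were.

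**Figure D1:**
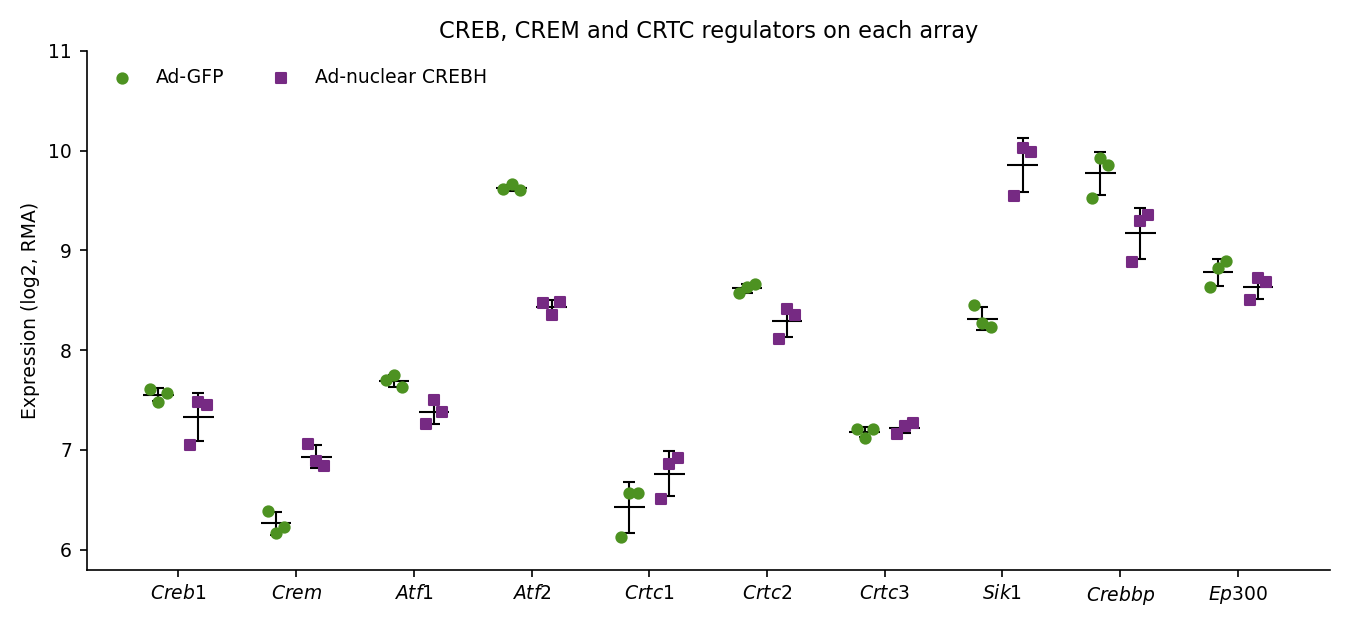
Expression (log2, RMA) of the 10 regulators in every dish, with Ad-GFP as green circles and Ad-nuclear CREBH as purple squares. Horizontal lines and whiskers give mean ± SD (n = 3 dishes per group). The groups are separate for Crem, Atf1, Atf2, Crtc2, Sik1 and Crebbp and overlap for the other genes.

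Sik1, a salt-inducible kinase that is itself known as a cAMP-induced gene and holds back CRTC proteins, had the largest change. It was at 8.45, 8.27 and 8.23 in Ad-GFP dishes and at 9.54, 10.03 and 9.99 in Ad-nuclear CREBH dishes. Every Ad-nuclear CREBH dish lay above every Ad-GFP dish, with replicate 1 the lowest of them. The rise was 2.91-fold (95% interval 2.26 to 3.73, adjusted p = 1.5e-04), or 1.54 on the log2 scale with an SE of 0.16. It was between 1.45 and 1.70 with any 1 array left out. Of all genes 9.37% had a larger absolute log2 fold change. Over the 6 arrays, each gene centred on its Ad-GFP mean, the genes with values closest to those of Sik1 were Ube2h, which encodes a ubiquitin-conjugating enzyme, Jmy and 5031439G07Rik, with root-mean-square differences of 0.058, 0.059 and 0.077 on the log2 scale.

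Among the CREB-type factors Crem rose and Creb1 and Atf1 did not. Crem encodes activators and also ICER, a short repressor made from an internal, cAMP-induced promoter, and its single feature is annotated to many transcripts and cannot tell them apart. Crem was at 6.39, 6.17 and 6.23 in Ad-GFP dishes and at 7.06, 6.89 and 6.84 in Ad-nuclear CREBH dishes. All 3 Ad-nuclear CREBH dishes were higher, and the mean was 1.59-fold that of Ad-GFP dishes, or 0.67 higher on the log2 scale (SE 0.14, adjusted p = 0.00723).

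Creb1 encodes CREB itself. Its values were 7.61, 7.48 and 7.57 in Ad-GFP dishes and 7.05, 7.48 and 7.45 in Ad-nuclear CREBH dishes. The groups overlapped, and replicate 1 of Ad-nuclear CREBH lay well below its group. The log2 fold change was -0.23 (95% interval -0.59 to 0.14, adjusted p = 0.314), and it was -0.09 without that array. Atf1, the third factor of this type, was at 7.70, 7.75 and 7.63 against 7.26, 7.50 and 7.38. Its Ad-nuclear CREBH dishes all lay lower, yet the log2 fold change of -0.32 (95% interval -0.62 to -0.01) did not pass (adjusted p = 0.0976).

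Atf2 encodes a bZIP factor that binds the same DNA element, commonly as a dimer with JUN, and is driven by stress kinases more than by PKA. It was at 9.61, 9.66 and 9.60 in Ad-GFP dishes and at 8.47, 8.35 and 8.48 in Ad-nuclear CREBH dishes. The dishes of each group lay close together and the groups far apart. Atf2 mRNA was 56.2% lower, a log2 fold change of -1.19 (95% interval -1.43 to -0.95, SE 0.10, adjusted p = 7.8e-05). With 1 array left out the value stayed between -1.21 and -1.15. Of all genes 14.6% had a larger absolute log2 fold change.

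The CRTC coactivators, which bind the leucine zipper of CREB, had small differences in either direction. Crtc2, the main form in liver, was at 8.57, 8.63 and 8.66 in Ad-GFP dishes and at 8.11, 8.41 and 8.35 in Ad-nuclear CREBH dishes. The Ad-nuclear CREBH dishes were all lower, with replicate 1 the lowest. The log2 fold change was -0.33 (95% interval -0.62 to -0.04, adjusted p = 0.0759). Crtc1 was at 6.13, 6.57 and 6.57 against 6.51, 6.86 and 6.92, with replicate 1 the lowest dish of both groups and the groups overlapping. Its log2 fold change was 0.34 (95% interval -0.09 to 0.77, adjusted p = 0.205). Crtc3 was at 7.21, 7.12 and 7.21 against 7.16, 7.24 and 7.27. These values lay within one another, and the log2 fold change of 0.05 had a 95% interval of -0.24 to 0.34 (adjusted p = 0.815), which leaves room for a change of up to 1.26-fold.

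The acetyltransferases CBP and p300 join CREB to the transcription machinery and serve many other factors. Crebbp, the CBP gene, was at 9.52, 9.93 and 9.86 in Ad-GFP dishes and at 8.88, 9.29 and 9.35 in Ad-nuclear CREBH dishes. Replicate 1 was the lowest dish in each group, and all Ad-nuclear CREBH dishes lay below all Ad-GFP dishes. Crebbp mRNA was 33.7% lower, a log2 fold change of -0.59 (95% interval -0.98 to -0.21, adjusted p = 0.0238). This call was lost without Ad-GFP replicate 2 (adjusted p = 0.0876), Ad-GFP replicate 3 (adjusted p = 0.0813) or Ad-nuclear CREBH replicate 1 (adjusted p = 0.0548), where Atf2 was the 1 gene of the group that fell. Ep300, the p300 gene, was at 8.63, 8.82 and 8.89 against 8.50, 8.72 and 8.68. The groups overlapped, and the log2 fold change was -0.15 (95% interval -0.44 to 0.15, adjusted p = 0.427).

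**Figure D2:**
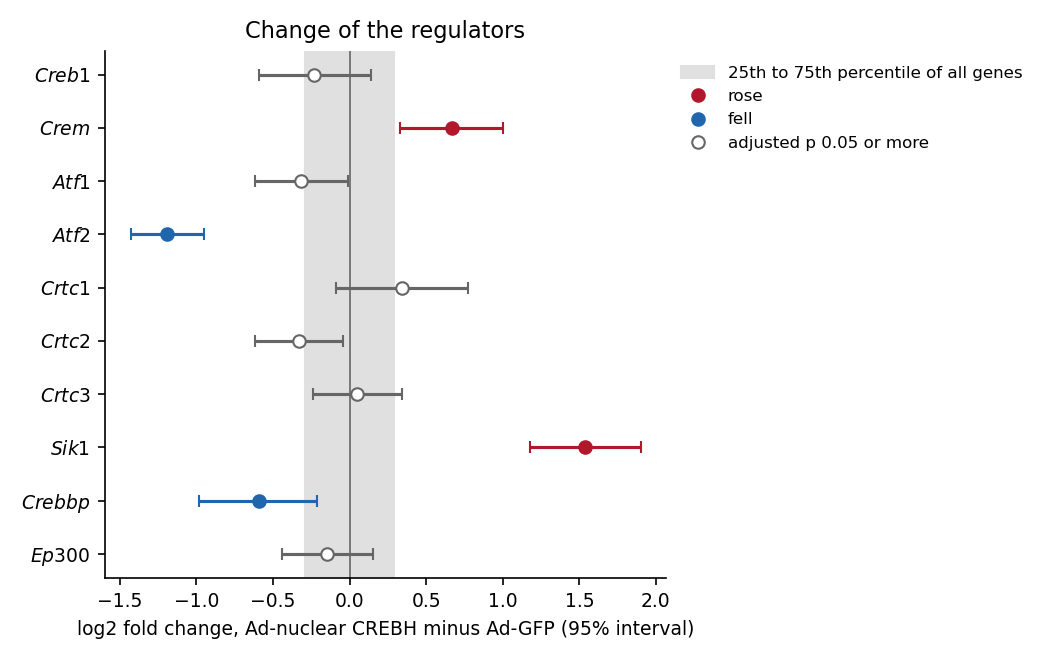
Log2 fold change, Ad-nuclear CREBH minus Ad-GFP, of the 10 regulators with the 95% interval from limma (n = 3 dishes per group). Filled symbols passed an adjusted p under 0.05 and rose (red) or fell (blue), open symbols did not, and the grey band spans the 25th to 75th percentile of all genes, -0.29 to 0.29. Sik1 at 1.54 and Atf2 at -1.19 lie farthest from 0.

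Scaling changed the calls of the CRTC genes and of no other regulator. With each array centred on its median, which moved the median difference over the whole table up by 0.14 log2 units and turned 3615 rises and 3427 falls into 4814 and 2852, Sik1, Crem, Atf2 and Crebbp were at 1.68, 0.81, -1.05 and -0.45 and kept their calls. Crtc1 then rose by 0.48 (adjusted p = 0.0428). It also rose after quantile normalization, by 0.46 (adjusted p = 0.0436), and under cyclic loess, by 0.50 (adjusted p = 0.0454), while Crtc2 fell after quantile normalization, by 0.40 (adjusted p = 0.0251). Without both arrays numbered 1, an alternative chosen after the values had been seen, 4 regulators fell and 3 rose, as Atf1 (adjusted p = 0.0492), Crtc2 (adjusted p = 0.0104) and Crtc1 (adjusted p = 0.0245) joined them. In that fit 4377 of all genes rose and 4765 fell.

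A difference between related genes on the same array does not depend on how the arrays are scaled to one another by a constant. Crtc1 minus Crtc2 was -2.44, -2.07 and -2.09 in Ad-GFP dishes and -1.60, -1.55 and -1.44 in Ad-nuclear CREBH dishes, a change of 0.67 log2 units in favour of Crtc1. Crem gained 0.98 on Atf1 and 0.89 on Creb1. Crebbp lost 0.45 against Ep300, from a mean of 0.99 to 0.54, and Crtc2 lost 0.38 against Crtc3. For these 5 pairs the groups did not overlap. Of single genes 49.4% were separate in this way, and the share over gene pairs in general was not computed. Several pairs also share a gene, so the count of separate pairs is no result in itself. Creb1 minus Atf1 changed by 0.09 and Crtc1 minus Crtc3 by 0.29, with overlapping groups (two-sided exact permutation p = 0.4 and p = 0.3). With 3 dishes per group the smallest p of the exact permutation test is 0.1, which the 5 separate pairs reached (p = 0.14 adjusted over 7 pairs), so that none of these differences could pass.

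**Figure D3:**
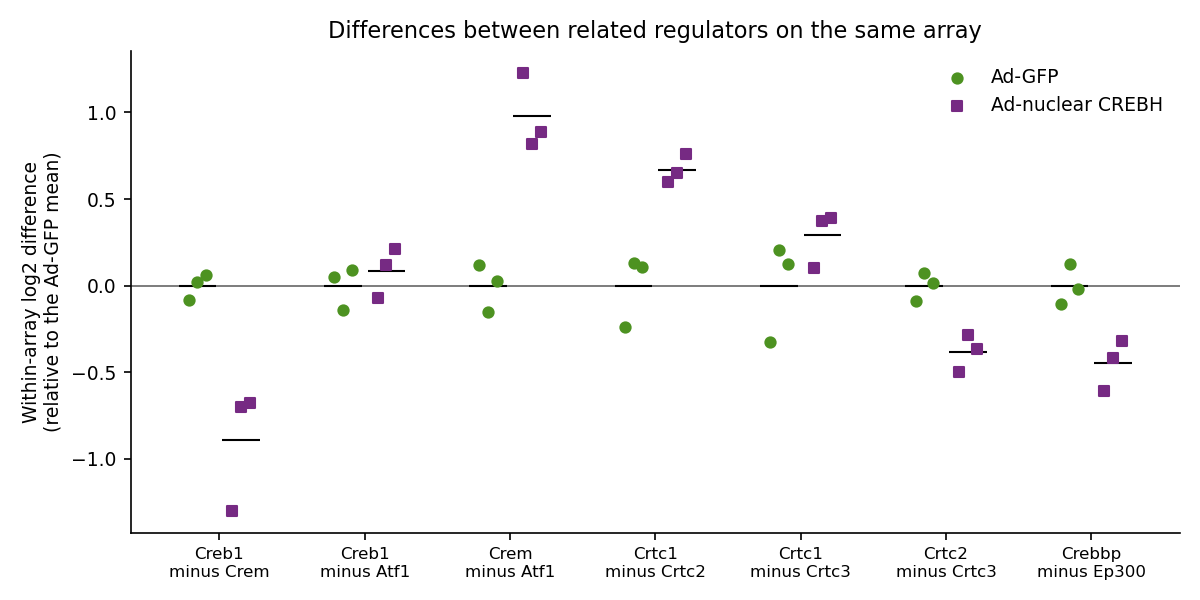
Log2 difference between 2 related regulators on the same array, relative to the Ad-GFP mean of that difference, for 7 pairs. Green circles are Ad-GFP dishes, purple squares Ad-nuclear CREBH dishes and lines the mean of 3. The groups are separate for 5 pairs, with Crem minus Atf1 at a mean of 0.98 and Creb1 minus Crem at -0.89, and overlap for Creb1 minus Atf1 and Crtc1 minus Crtc3. Several pairs share a gene, and the share of separate pairs among all genes was not computed.

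CREB-type factors, ATF2 dimers and CREBH all bind cAMP response elements, so the promoters of the regulators were searched for this element. RefSeq windows (GRCm38.p6) from 250 bases before to 50 after the transcription start were given for 7 of the 10 genes, and none for Crem, Crtc2 and Sik1. The full element TGACGTCA, which reads the same on both strands, was in 0 of the 7 windows and in 1.79% of all 32851 windows. Its piece TGACG, searched on both strands and contained in the full element, was in 1 of the 7 windows, that of Atf1, starting 90 bases before the transcription start, and in 20.8% of all windows. The GC box GGGCGG, searched on both strands, was in 6 of the 7 windows and in 35.7% of all windows, and the CCAAT box, on both strands, in 2 of the 7 and in 37.4% of all. The GC and CCAAT boxes were added after the windows had been read. Shown are the 120 bases before the start of Atf1, Atf2 and Crebbp, the genes with a window whose Ad-nuclear CREBH dishes all lay below the Ad-GFP dishes, 5′ to 3′ on the strand of the gene. Capitals mark matches to TGACG or the GC box on either strand, and no CCAAT box lies in these stretches.
Atf1, chr15:100227739-100227858, plus strand: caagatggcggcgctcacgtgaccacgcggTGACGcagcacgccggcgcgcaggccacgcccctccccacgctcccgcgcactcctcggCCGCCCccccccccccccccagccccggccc
Atf2, chr2:73892640-73892759, minus strand: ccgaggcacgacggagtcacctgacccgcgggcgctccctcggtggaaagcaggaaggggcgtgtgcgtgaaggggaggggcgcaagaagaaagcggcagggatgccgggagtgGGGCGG
Crebbp, chr16:4213405-4213524, minus strand: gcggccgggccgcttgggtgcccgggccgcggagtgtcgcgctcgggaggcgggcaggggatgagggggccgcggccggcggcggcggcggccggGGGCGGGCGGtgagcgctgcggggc

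The Atf1 stretch holds the match to the cAMP response element piece near its 5′ end and a GC box closer to the start, while those of Atf2 and Crebbp hold GC boxes next to the start. These are matches of letters, and binding was not measured.

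Genes that make and break down cAMP changed in both directions, with more rises than falls. Of 23 measured, 9 rose and 3 fell, or 39.1% and 13%, beside 19.2% and 18.2% of all genes, and the median log2 fold change was 0.11 against 0.04 for all genes. The largest rises were those of the cAMP-degrading phosphodiesterases Pde4c (1.48, adjusted p = 7.2e-04), Pde4b (1.40, adjusted p = 5.3e-04) and Pde4a (1.04, adjusted p = 0.00129). Pde4b is itself a known cAMP-induced gene, and its 3 Ad-nuclear CREBH dishes all lay above its 3 Ad-GFP dishes. The adenylyl cyclase genes Adcy9 and Adcy5 also rose, by 0.95 (adjusted p = 0.00201) and 0.52 (adjusted p = 0.00924). Both passed in all 6 omissions of 1 array. The glucagon receptor gene Gcgr rose by 0.99 (adjusted p = 0.0421) but passed in 3 of these 6 omissions. The falls were those of Gnai2, the α subunit of an inhibitory G protein, at -0.76 (adjusted p = 0.016), and of the adenylyl cyclase genes Adcy6 at -0.66 (adjusted p = 0.0496) and Adcy1 at -0.56 (adjusted p = 0.0262). Each of these falls lost its call under some omission of 1 array, Gnai2 without Ad-GFP replicates 2 or 3 or Ad-nuclear CREBH replicate 1, Adcy1 without Ad-GFP replicate 2 or any 1 Ad-nuclear CREBH array, and Adcy6 without any 1 array but Ad-GFP replicate 1. Neither Adcy6 nor Adcy1 was called with arrays centred, quantile normalized or under cyclic loess, with adjusted p of 0.0668, 0.0699 and 0.0816 for Adcy6 and 0.115, 0.0542 and 0.0573 for Adcy1, and Adcy6 was also missed by the moderated statistic of the methods (adjusted p = 0.0505) and with a replicate block (adjusted p = 0.0659). With 1 array left out, 0 genes fell without Ad-GFP replicate 2 or Ad-nuclear CREBH replicate 1, and 1 fell without Ad-GFP replicate 3 or Ad-nuclear CREBH replicates 2 or 3. Gnas, the stimulatory α subunit, was at 8.00 and 8.10 (adjusted p = 0.581), and Gnai3 at 10.08 and 9.84 (adjusted p = 0.0689).

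A pair of PKA regulatory subunit genes changed in opposite directions. Prkar2a, the RIIα regulatory subunit, went from 8.45 up to 10.00 (log2 difference 1.55, SE 0.14, adjusted p = 8.3e-05), while Prkar1a, the RIα subunit, fell from 9.66 to 8.63, by 1.04 (SE 0.15, adjusted p = 9.5e-04). Of 15 measured subunits, inhibitors and anchors, 3 rose and 4 fell, or 20% and 26.7%, beside 19.2% and 18.2% of all genes, with a median of -0.12 against 0.04 for all genes. Prkar1b rose by 0.75 (adjusted p = 0.0306) and the anchor gene Akap11 by 0.51 (adjusted p = 0.0125), both called in the fit of all arrays but not without Ad-nuclear CREBH replicate 2, where 1 gene of the list rose. Prkar1b was also not called without Ad-GFP replicates 2 or 3 or Ad-nuclear CREBH replicate 1, and Akap11 not without Ad-nuclear CREBH replicate 3. The anchor genes Akap8 and Akap1 fell by 1.02 (adjusted p = 2.8e-04) and 0.93 (adjusted p = 0.00833). Prkacb, a catalytic subunit, was at 8.80 and 8.86 (adjusted p = 0.866), and the anchor gene Akap13 at 7.85 and 8.19 (adjusted p = 0.0535). Prkaca, another catalytic subunit gene, was not analysed here, as no feature carries its symbol alone.

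Among the genes that set the place of CRTC proteins, 3 of 19 rose and 6 fell, or 15.8% and 31.6%, beside 19.2% and 18.2% of all genes, with a median log2 fold change of -0.30. Sik3, a relative of Sik1, rose by 0.89 (adjusted p = 0.00576), and Hdac5, a class IIa deacetylase that SIK kinases also phosphorylate, by 1.71 (adjusted p = 1.9e-04). Of the complex that activates SIK kinases, Strada, the pseudokinase partner of LKB1, fell by 1.53 (adjusted p = 3.5e-04) and Cab39, its scaffold, rose by 0.50 (adjusted p = 0.00487), a value that was 0.32 after quantile normalization (adjusted p = 0.059). Stk11, the LKB1 gene itself, was at 9.62 with Ad-GFP and 9.18 with Ad-nuclear CREBH, with overlapping groups (adjusted p = 0.0918). The adaptor proteins that hold phosphorylated CRTC in the cytoplasm are encoded by the Ywha genes. Of these Ywhah fell by 0.79 (adjusted p = 8.6e-04), Ywhab by 0.69 (adjusted p = 0.00923) and Ywhaz by 0.39 (adjusted p = 0.00156). Ywhae was at 11.37 and 11.26 (adjusted p = 0.367) and Ywhaq at 11.26 and 10.94 (adjusted p = 0.0688). Without both arrays numbered 1, 12 genes of this list fell. Sik2 was likewise not analysed here.

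Related bZIP factors and partners of CBP and p300 included larger changes than most of the 10 regulators. Creb5, the closest relative of Atf2 on the list together with Atf7, fell from 8.73 to 6.72, by 2.01 (SE 0.25, adjusted p = 4.3e-04). Jun, a dimer partner of ATF2, fell by 0.68 (adjusted p = 0.00533). Jdp2, a repressor that binds JUN and ATF2, rose by 1.49 (SE 0.40, adjusted p = 0.02), Crebzf by 1.21 (adjusted p = 3.1e-04) and Atf4 by 0.40 (adjusted p = 0.0343). Of 8 factors these 3 rose and 2 fell, or 37.5% and 25%, beside 19.2% and 18.2% of all genes, but Crebzf alone rose without Ad-GFP replicate 2 or Ad-nuclear CREBH replicates 2 or 3, and Atf4 was called in no omission of 1 array other than that of Ad-GFP replicate 1. After quantile normalization Atf4 was at 0.23 (adjusted p = 0.253) and under cyclic loess at 0.32 (adjusted p = 0.0973). Atf3 was at 9.02 and 7.96 (adjusted p = 0.109), with a log2 fold change between -1.42 and -0.46 when 1 array was left out. Jund was at 8.49 and 8.38 (adjusted p = 0.683).

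Of 12 further acetyltransferases and partners of CBP and p300, 3 rose and 4 fell, or 25% and 33.3%, beside 19.2% and 18.2% of all genes, with a median of -0.03. Cited2, which binds CBP and p300 and competes with other factors for them, went from 10.95 down to 7.80, 88.7% lower (log2 fold change -3.15, SE 0.19, adjusted p = 2.2e-05). The paired acetyltransferase genes Kat2a and Kat2b fell by 1.18 (adjusted p = 0.00286) and 1.03 (adjusted p = 0.00429). Cited4 rose by 0.96 (adjusted p = 0.00106), the steroid receptor coactivator Ncoa3 by 0.59 (adjusted p = 0.00833) and Kat7 by 0.42 (adjusted p = 0.0193), the last not called after quantile normalization (adjusted p = 0.0566) or without Ad-GFP replicate 2 or Ad-nuclear CREBH replicates 2 or 3. Ncoa1 was at 7.50 and 7.57 (adjusted p = 0.765) and Ncoa2 at 8.43 and 8.41 (adjusted p = 0.925).

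Genes listed as induced by cAMP in hepatocytes or other cells went both ways. Of 19 measured, not counting Crem and Sik1, 5 rose and 5 fell, or 26.3% each, beside 19.2% and 18.2% of all genes, with a median log2 fold change of -0.36. The orphan nuclear receptor genes Nr4a3 and Nr4a2 rose 22.1-fold and 5.67-fold, with log2 fold changes of 4.46 (SE 0.34, adjusted p = 4.2e-05) and 2.50 (SE 0.24, adjusted p = 1.1e-04). Nr4a1, of the same family, was at 5.49 with Ad-GFP and 5.54 with Ad-nuclear CREBH (adjusted p = 0.845). Irs2, the insulin receptor substrate induced in fasting, rose by 1.14 (adjusted p = 0.0132), which did not pass without Ad-nuclear CREBH replicates 2 or 3. Id1 fell by 3.37 (adjusted p = 1.8e-05), Igfbp1 fell by 3.16 (adjusted p = 2.0e-05) and Lpin1 fell by 2.64 (adjusted p = 3.6e-05). Dusp1 was at 11.23 and 11.77 (adjusted p = 0.115) and Gadd45b at 7.91 and 7.43 (adjusted p = 0.0529). The number of rises was 3 without Ad-GFP replicate 2 or 3 and 2 without Ad-nuclear CREBH replicate 2 or 3. With Ad-GFP, Nr4a3 was at 4.23, under the medians of those arrays (5.12 to 5.30), and RMA can make the fold change of so dim a gene too small. The same holds for Pde4a, Pde4c, Adcy1, Adcy5, Prkar1b, Strada, Jdp2 and Cited4, which were this dim in at least 1 group.

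**Figure D4:**
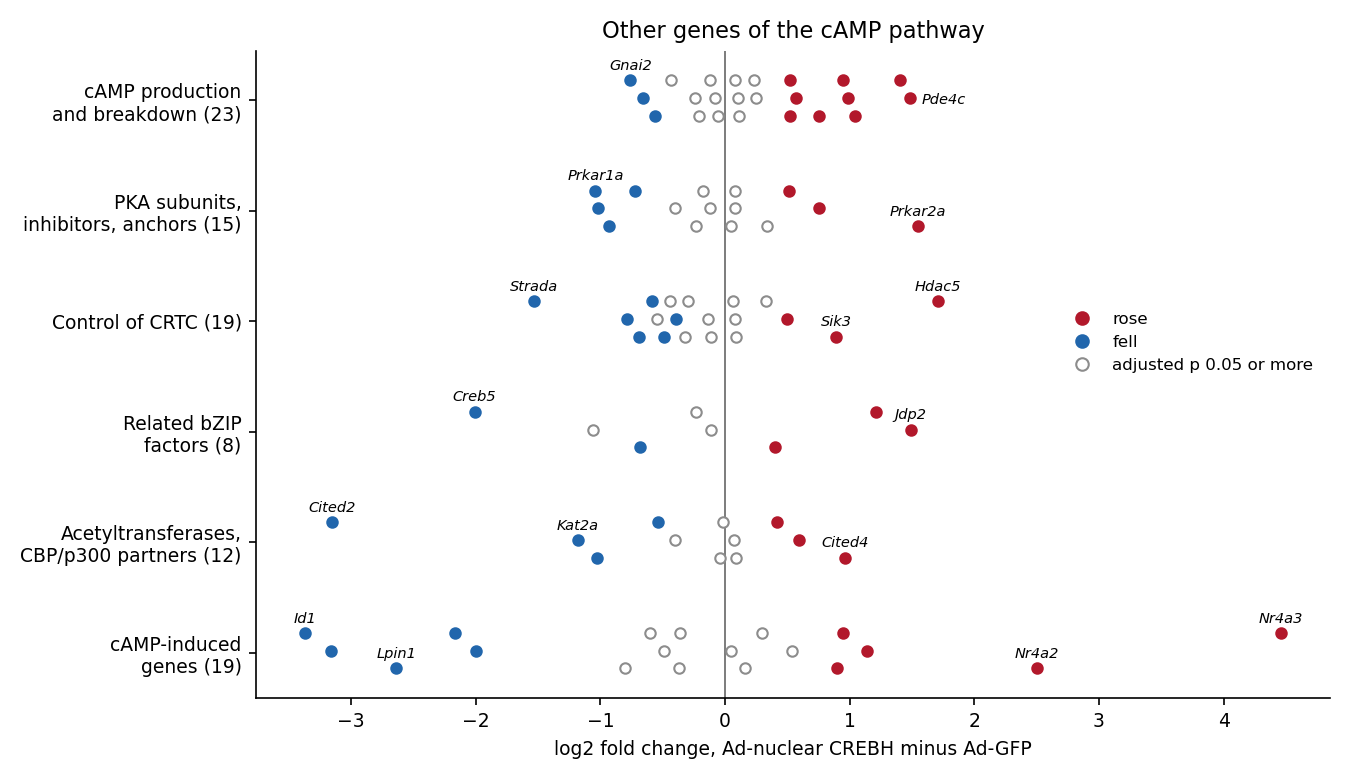
Log2 fold change, Ad-nuclear CREBH minus Ad-GFP, of the other genes of the cAMP pathway in 6 groups, with the number measured in parentheses. Each point is 1 gene, red where it rose, blue where it fell (adjusted p under 0.05 from limma, n = 3 dishes per group) and open otherwise; height within a group has no meaning. Nr4a3 at 4.46 and Nr4a2 at 2.50 lie farthest right, and Id1 at -3.37 and Igfbp1 at -3.16 farthest left, with Cited2 next at -3.15.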

How the data were processed

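Values were used as the authors deposited them, on the log2 scale after RMA (background correction, normalization between arrays and a summary of probes per transcript). The submitters' processing notes give no version of RMA, the log base is read from the range of the values (1.17 to 13.66), and the array definition and genome build are not given in the sources used here. In the platform annotation 21218 of 35556 features had exactly 1 symbol, 1881 had more and 12457 had none. Features of the first kind were kept, 1 per gene with the highest mean, which gave 18820 genes. All 6 arrays entered the comparison. RMA gives no background flag, and precision is limited by the number of arrays.

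The groups were compared with limma 3.58.1 in R 4.3.3 (lmFit and eBayes with an intensity trend, 4 residual and 3.97 prior degrees of freedom), in place of the methods' intensity-based moderated statistic, which was written out as an alternative. In simulated arrays with 200 changed genes among 18820, calls at an adjusted p under 0.05 found 12 of 50 genes with a 1.5-fold change, 30 of 50 with a 2-fold change, 48 of 50 with a 4-fold change, and 7 genes without one. Far fewer genes changed there than the 37.4% that passed here. The share found depends on that number, so these shares need not hold for the real arrays. The 10 genes, the lists of pathway genes and markers and the tests were chosen with earlier results of these data known. Named in each pathway list were the 3 largest rises, the 3 largest falls and the 2 brightest genes that did not pass. Adcy9, Adcy5, Gcgr, Gnai1, Ywhaz, Stk11 and Nr4a1 were named besides, after their values had been seen. Other falls or rises below that rank are given as counts. The marker genes named were chosen after their values were seen. Other settings tried were a prior without trend, array weights, a replicate block, array centring, quantile and cyclic loess normalization, the mean of a gene's features, other minimum levels, and omission of each array. Figures were drawn with matplotlib 3.10.9.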

Additional observations from a re-analysis of the deposited data

How the results depend on the processing

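The rises of Sik1 and Crem, the fall of Atf2 and the rise of Creb3l3 kept their direction and passed in every alternative run, and Crebbp in all but the 3 omissions of 1 array given above. The number of regulators that fell was 1 to 2 with 1 array left out and 4 without both arrays numbered 1. In the list of cAMP production and breakdown, 5 genes rose among genes above the median level, where fewer of its genes were tested, and the falls numbered 5 with array weights, 1 with each array centred on its median, 5 without both arrays numbered 1 and 0 to 4 with 1 array left out. In the list of CRTC control 10 genes fell with array weights and 12 without both arrays numbered 1. With 1 array left out, 1 to 4 genes rose among PKA subunits and anchors, 1 to 3 among related bZIP factors and 2 to 7 among cAMP-induced genes. The sign of genes that did not pass turned for Prkacb after quantile normalization (-0.08) and for Ywhae (0.04), Jund (0.03) and Ncoa2 (0.12) with each array centred on its median. With 1 array left out it turned within -0.09 to 0.26 for Prkacb, -0.23 to 0.05 for Jund, -0.00 to 0.17 for Ncoa1 and -0.14 to 0.07 for Ncoa2. The 2 brightest genes in each pathway list that did not pass with all arrays were followed through the other settings. Akap13 and Ywhaq each passed in 8 of these, Gadd45b in 7, Gnai3 in 5, Dusp1 in 4, Atf3 in 3 and Ywhae in 2. Less bright genes that did not pass were not followed in this way. Some of them, such as Gnai1 and Stk11, passed in 1 omission of 1 array. Dusp1 rose with array weights (adjusted p = 7.8e-04), without replicate 1 of Ad-GFP (0.0294) or of Ad-nuclear CREBH (0.0234) and without both, by 0.97 (adjusted p = 6.8e-06). The moderated statistic of the methods called Akap13 (adjusted p = 0.0465) and Gadd45b (adjusted p = 0.0489), and the replicate block Gadd45b (adjusted p = 0.0279), Ywhaq (adjusted p = 0.0137) and Atf3 (adjusted p = 0.0281). Crtc2 fell with array weights (adjusted p = 0.0234) and among genes above the median level (adjusted p = 0.0439). The causes were not tested.

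Deviations from the group means had weak positive correlations between samples that share a replicate number (0.178, 0.073 and 0.139). Between samples with different numbers the correlations ran from -0.173 to 0.12. Whether the numbers pair the dishes is not given, and the main fit did not pair them. With the replicate number as a block, 3715 genes rose and 3705 fell, and the regulators that rose and fell numbered 2 and 2. In the simulated arrays changes of 1.5-fold and 2-fold were often missed, but far fewer genes changed there than passed here. How often such changes were missed in these data is therefore not known. A regulator that did not pass is still not shown to be unchanged.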
